A study of Rattus norvegicus with 8 samples.

Results

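Bcl6, Pdk4, Angptl4, Fkbp5, Tsc22d3, Cish and Socs2 are genes known to respond to hormones or to fasting, and they were followed here across single rat kidneys. Members were every probe set of the array whose platform symbol was exactly 1 of these 7 names. This gave 10 probe sets for 7 of the 14217 genes that had a probe set of a single symbol, with 2 probe sets each for Pdk4, Fkbp5 and Cish and 1 for each of the others. The genes were chosen because their values varied between arrays of the same diet and because members correlated with each other, and Bcl6 and Pdk4 also because they differed little between diets. Those quantities are therefore given as a description, without a test.

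The arrays came from male Wistar rats that were 8 weeks old and had been fed for 24 days either a high phosphorus (HP) diet with 1.2% phosphorus or the control AIN-93G diet with 0.3% phosphorus. Each of the 4 HP and 4 control arrays held left kidney RNA of 1 rat, hybridised to the Affymetrix Rat Genome 230 2.0 Array. The phosphorus of the HP diet was added as potassium dihydrogen phosphate in place of corn starch, so potassium differed with phosphorus. The rats ate freely, were killed after a short fast, and were picked by the study as average animals of a larger group. Whole kidney was sampled, so fewer cells of a type and less RNA per cell cannot be told apart in any value below.

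Pdk4 encodes a kinase that switches off the pyruvate dehydrogenase complex, and Angptl4 encodes a secreted inhibitor of lipoprotein lipase. Both are textbook targets of the fatty acid receptors of the PPAR family and are induced by fasting in several tissues. Cish and Socs2 encode SOCS box proteins that are transcribed when STAT5 is activated, for example by growth hormone or prolactin, and that restrain the same signal. Bcl6 encodes a zinc finger repressor that can bind DNA sites overlapping those of STAT factors, and it is repressed by growth hormone in liver. Fkbp5, an HSP90 co-chaperone that lowers the affinity of the glucocorticoid receptor for its hormone, and Tsc22d3, also called GILZ, are standard targets of that receptor.

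The sequences in front of 4 of these genes are shown because they belong to the pairs on which the array patterns below turn, Pdk4 with Angptl4 and Bcl6 with Cish. They are RefSeq promoter windows of the assembly GRCr8, 5′ to 3′ on the strand of the gene, with 250 bases before and 50 bases after the transcription start. Capitals mark matches to 6 motifs searched on both strands, which were the short glucocorticoid receptor site AGAACA, its palindrome (AGAACA, 3 bases, TGTTCT), the PPAR site (AGGTCA, 1 base, AGGTCA), the STAT site TTCNNNGAA, the FOXO site GTAAACA and a STAT site of the BCL6 related form TTCCTNGAA. The windows were Cish, chr8:116850719-116851018, plus strand, Bcl6, chr11:90358503-90358802, plus strand, Pdk4, chr4:34568280-34568579, minus strand, and Angptl4, chr7:15258632-15258931, minus strand.
Cish: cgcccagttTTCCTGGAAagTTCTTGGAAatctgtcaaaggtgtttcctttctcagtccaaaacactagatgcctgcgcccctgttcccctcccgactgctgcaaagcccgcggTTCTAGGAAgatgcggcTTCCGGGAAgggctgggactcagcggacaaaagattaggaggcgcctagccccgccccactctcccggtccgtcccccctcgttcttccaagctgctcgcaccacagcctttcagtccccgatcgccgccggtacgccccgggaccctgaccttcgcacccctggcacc
Bcl6: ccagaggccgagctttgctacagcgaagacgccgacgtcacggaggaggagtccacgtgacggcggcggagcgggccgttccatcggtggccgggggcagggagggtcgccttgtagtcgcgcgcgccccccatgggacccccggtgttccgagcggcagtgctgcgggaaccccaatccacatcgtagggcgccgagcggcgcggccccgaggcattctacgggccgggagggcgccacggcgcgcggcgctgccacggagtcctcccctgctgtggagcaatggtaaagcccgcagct
Pdk4: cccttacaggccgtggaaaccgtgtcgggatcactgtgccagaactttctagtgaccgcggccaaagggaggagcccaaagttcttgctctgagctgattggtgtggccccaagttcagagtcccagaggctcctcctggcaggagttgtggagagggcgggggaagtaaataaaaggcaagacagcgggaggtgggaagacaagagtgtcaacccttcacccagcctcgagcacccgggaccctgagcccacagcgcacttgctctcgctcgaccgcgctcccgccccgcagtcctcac
Angptl4: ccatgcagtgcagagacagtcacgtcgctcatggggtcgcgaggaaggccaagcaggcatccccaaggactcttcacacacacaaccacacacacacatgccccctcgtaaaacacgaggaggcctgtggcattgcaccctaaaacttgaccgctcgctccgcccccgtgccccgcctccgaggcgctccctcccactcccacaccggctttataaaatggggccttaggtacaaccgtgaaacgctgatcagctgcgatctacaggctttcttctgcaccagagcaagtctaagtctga

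The Cish window held 4 STAT matches, which began 241, 230, 136 and 119 bases before the start, and 2 of these also matched the BCL6 related form. A STAT match was found in 8.87% of the 33469 promoter windows, a BCL6 related match in 1.71%, and 4 or more STAT matches in 2 windows in all. The Bcl6, Pdk4, Angptl4 and Fkbp5 windows held no match to any of the 6 motifs. Of 3 Tsc22d3 windows, 1 held a FOXO match that began 162 bases before the start, against 3.78% of all windows. The short glucocorticoid receptor site occurred in 20.7% of all windows, its palindrome in 0.0149% and the PPAR site in 0.0538%. Windows were matched for 6 of the 7 genes, all but Socs2. A match describes letters only, and the lack of one says nothing about the factor.

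The deposited values had been summarised with the distribution free weighted method, taken here as log2 values, which scales the differences of each probe set by how much that probe set varied. Differences between arrays cannot be read as fold changes for this reason, and they are also given in units of the probe set's own standard deviation (SD) within diets. The medians of the 8 arrays lay between 7.05609 and 7.05616, and the median SD within diets over 31042 probe sets was 2.22e-06. Across the whole array, limma at an adjusted p under 0.05 called 915 probe sets higher in the HP diet and 350 lower, a split that became 316 higher and 7712 lower once the arrays were quantile normalized. Kidney markers had mean deposited values between 8.19 (Nphs1) and 14.22 (Kap, an androgen-regulated kidney protein) in both diets. Of the 11 probe sets read, 0 were called by limma and 0 by rank products, with 2 at an unadjusted p under 0.05. The study reported Slc34a1 lower in the HP diet through a probe set other than that read here, and also by in situ hybridization.

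Against that background the spread of the members stood out, which is what they were chosen for. Bcl6 had the 6th largest SD within diets of all probe sets tested, Pdk4 probe set 1378074_at the 7th, Cish probe set 1378586_at the 9th and Angptl4 the 10th. Fkbp5 probe sets ranked 62 and 103, the second Cish probe set 141 and Tsc22d3 180. The second Pdk4 probe set, 1369150_at, ranked 1240 and Socs2 5281. Thus 8 of the 10 probe sets were among the 1% of largest SD. A larger SD was found in 3.99% of all probe sets for the second Pdk4 probe set and in 17.0% for Socs2. The diets overlapped in all 10, and diet accounted for between 0.253% and 36.7% of the sum of squares. By contrast, Gpnmb, Havcr1, Mmp12 and Spp1, which code for products raised in injured kidney and in macrophages and which had 4 of the 5 largest SDs, had 91.3%, 94.8%, 87.2% and 96.7% of their sum of squares between diets.

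**Figure D1:**
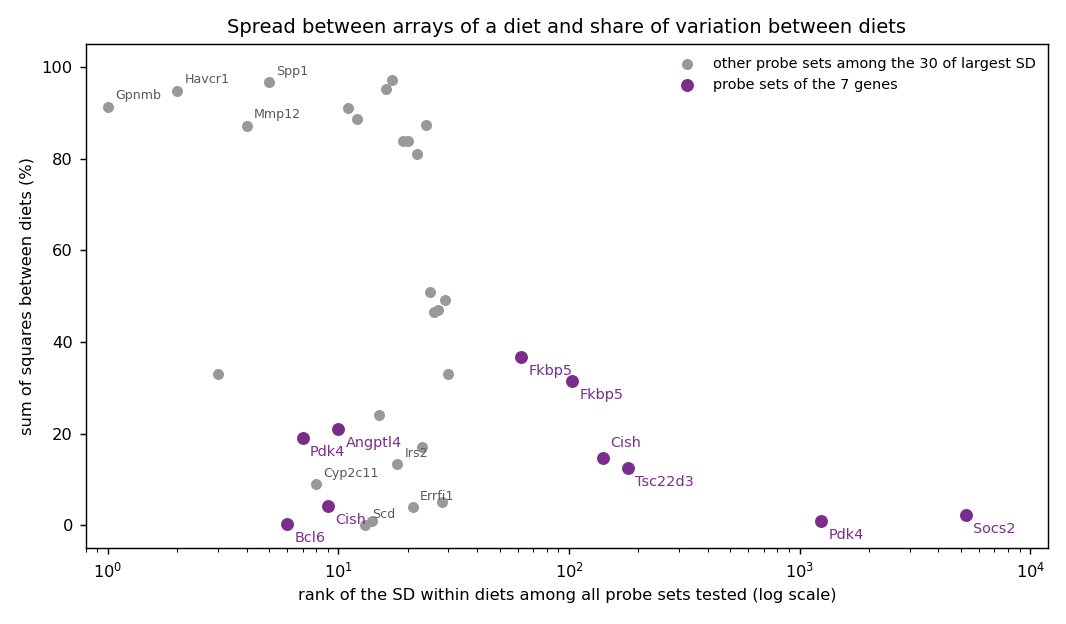
The x axis gives the rank of the SD within diets among all probe sets tested on a log scale and the y axis the percentage of the sum of squares that lay between diets, for the 10 probe sets of the 7 genes (purple) and the other probe sets among the 30 of largest SD (grey). Bcl6 lies at rank 6 and 0.253%, whereas Spp1 lies at rank 5 and 96.7%.

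Bcl6 had deposited values of 8.433, 8.449, 8.449 and 8.479 on HP arrays 1 to 4, against 8.426, 8.477, 8.486 and 8.430 on control arrays 1 to 4. The order from high to low mixed the diets, with control 3, HP 4 and control 2 at the top and control 4 and control 1 at the bottom. The means were 8.452 ± 0.019 in HP and 8.455 ± 0.031 in control kidneys (SD, n = 4 each). The standardized difference, HP minus control, was -0.09, and 0.253% of the sum of squares lay between diets. Leaving out 1 array at a time or rescaling moved this difference between -0.49 and 0.35, so its direction was not settled.

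Pdk4 probe set 1378074_at read 8.392, 8.368, 8.382 and 8.373 on HP arrays 1 to 4, against 8.396, 8.368, 8.340 and 8.342 on control arrays 1 to 4. Control 1 and HP 1 were highest, and control 4 and control 3 stood below all HP arrays. The means were 8.378 ± 0.011 in HP and 8.362 ± 0.026 in control kidneys (SD, n = 4 each), a standardized difference of 0.84. Left-out arrays and rescaling moved this between 0.50 and 2.18, and the highest value came without control 1. The second Pdk4 probe set, 1369150_at, covered a range of only 1.05e-04 and had a standardized difference of -0.16, which left-out arrays and rescaling moved between -1.58 and 0.61. It again placed control 1 and HP 1 highest and control 4 lowest, and its deviations from the diet means correlated with those of the first at r = 0.90.

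Angptl4 read 7.379, 7.367, 7.374 and 7.370 on HP arrays 1 to 4, against 7.378, 7.372, 7.352 and 7.347 on control arrays 1 to 4. The order was almost that of Pdk4, with HP 1 and control 1 highest and control 3 and control 4 lowest. The means were 7.373 ± 0.005 in HP and 7.362 ± 0.015 in control kidneys (SD, n = 4 each), a standardized difference of 0.89. This did not pass the test in limma (adjusted p = 0.54), and the exact two-sided permutation p was 0.31. The test of a single value over the 70 arrangements of the arrays cannot go below 0.0286.

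Cish probe set 1378586_at read 6.847, 6.840, 6.847 and 6.838 on HP arrays 1 to 4, against 6.860, 6.837, 6.831 and 6.862 on control arrays 1 to 4. All 4 HP arrays lay between the control arrays, of which 4 and 1 were highest and 2 and 3 lowest, the reverse of Bcl6. The standardized difference was -0.37 (limma adjusted p = 0.84, exact two-sided permutation p = 0.60). The second Cish probe set, 1388233_at, gave -0.72 (limma adjusted p = 0.64, exact permutation p = 0.37) and followed the first at r = 0.98 over deviations from the diet means. Socs2 had a far smaller spread, with 6.131424, 6.131417, 6.131416 and 6.131422 on HP arrays 1 to 4, against 6.131426, 6.131413, 6.131405 and 6.131425 on control arrays 1 to 4. Its control arrays split in the same way as those of Cish, with 1 and 4 high and 2 and 3 low, and its standardized difference was 0.26 (limma adjusted p = 0.90, exact permutation p = 0.80).

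Fkbp5 probe set 1388901_at read 9.2820, 9.2836, 9.2842 and 9.2812 on HP arrays 1 to 4, against 9.2837, 9.2839, 9.2841 and 9.2866 on control arrays 1 to 4. Control 4 stood above the other 7 arrays, and HP 1 and HP 4 stood below them. Mean Fkbp5 was 9.2827 ± 0.0014 in HP and 9.2845 ± 0.0014 in control kidneys (SD, n = 4 each), a standardized difference of -1.32 (limma adjusted p = 0.35, exact two-sided permutation p = 0.17). The second Fkbp5 probe set, 1380611_at, gave -1.17 (limma adjusted p = 0.41, exact permutation p = 0.26) with the same arrays at both ends. Tsc22d3 read 10.1443, 10.1449, 10.1450 and 10.1440 on HP arrays 1 to 4, against 10.1445, 10.1449, 10.1448 and 10.1451 on control arrays 1 to 4. It too had control 4 highest and HP 1 and HP 4 lowest, with a standardized difference of -0.66 (limma adjusted p = 0.68, exact permutation p = 0.40).

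None of the 7 probe sets of Angptl4, Fkbp5, Tsc22d3, Cish and Socs2 was called by limma, where 4.08% of all probe sets were called, and 0 of them had an unadjusted p under 0.05, against 19% of all probe sets. Spread within a diet, by which the genes were chosen, is the denominator of that test, so few small p-values followed from the choice. Of 15 other settings, median centring alone put members past the threshold, namely Angptl4 and Cish probe set 1378586_at (limma adjusted p = 8.3e-66 and 3.2e-11), at standardized differences of 0.89 and -0.37. The same choice favours overlap of the diets, which was seen in each of these 7 probe sets, beside 7.09% of all probe sets with every HP array above every control array and 5.81% with every HP array below. Rank products, the method named by the study, ranks raw differences. It called 6 of the same 7 at a false discovery rate under 0.05, against 5.69% of all probe sets. The choice of genes for large spread favours such calls, so this count does not measure a response to diet. Rank products placed Angptl4 higher in the HP diet, as 3.4% of all probe sets. Both Fkbp5 probe sets, Tsc22d3 and Cish probe set 1388233_at were placed lower, as 2.31% of all probe sets. On quantile normalized arrays the method called 432 probe sets higher and 1136 lower in all, against 1056 and 718 on the deposited values, and Tsc22d3 and Cish probe set 1388233_at were then not called. Tsc22d3 was also lost without HP 1, HP 4 or control 4, and Cish probe set 1388233_at without control 1 or control 4. Angptl4 and both Fkbp5 probe sets kept their direction in each of these repeats, except that Angptl4 passed in both directions without HP 1. Cish probe set 1378586_at passed in both directions at once, as did 0.0193% of all probe sets. It passed as lower alone without HP 1, HP 2, HP 3, control 2 or control 3, and as higher alone without control 1 or control 4. Socs2 passed in neither direction. Limma divides a difference by the spread of the probe set and rank products do not.

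**Figure D2:**
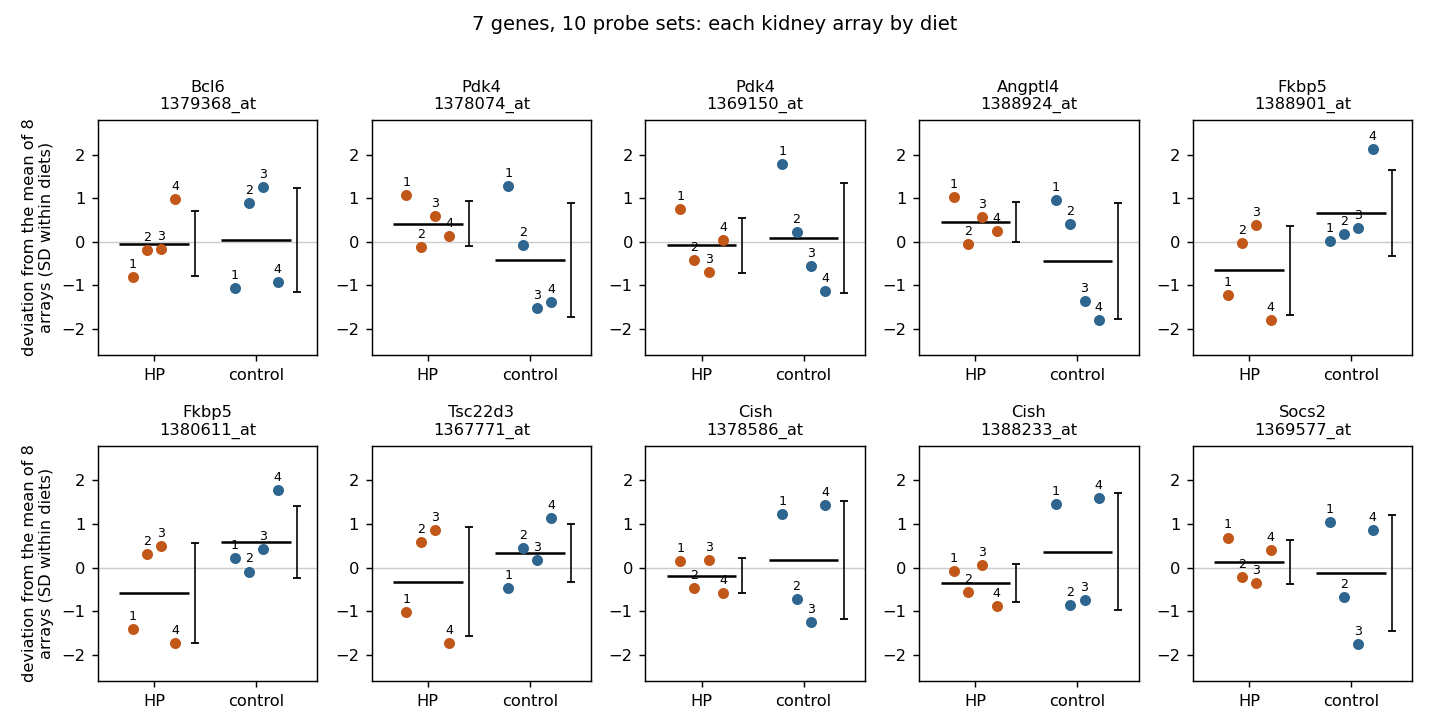
Each panel is 1 probe set, with HP arrays left (orange) and control arrays right (blue), numbered 1 to 4. The y axis is the deviation from the mean of all 8 arrays in SDs within diets, bars are group means and whiskers 1 SD (n = 4 arrays each). The diets overlap in every panel, and control arrays spread more widely than HP arrays in 7 of the 10 panels.

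How strongly the arrays of a diet differed was itself unequal between diets. The SD over control arrays was 3.41 times that over HP arrays for Cish probe set 1378586_at and 3.07 times for the second. The ratio was 2.90 for Angptl4, 2.66 for Socs2, 2.50 and 1.97 for the Pdk4 probe sets and 1.61 for Bcl6. Control arrays accordingly contributed 92.1% of the sum of squares within diets of Cish and 72.2% of that of Bcl6. The glucocorticoid targets did not share this, since Tsc22d3 had an SD over HP arrays that was 1.87 times that over control arrays, and the Fkbp5 probe sets had HP over control ratios of 1.03 and 1.38. These ratios were not tested, because spread between arrays had been used to choose the genes.

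Across the 8 arrays the 7 genes fell into 3 patterns. For the 21 pairs of genes, with the probe set of highest mean for each, 3 pairs had a Pearson r of deviations from the diet means over 0.8 and 2 pairs had an r under -0.7. In the first pattern Pdk4 and Angptl4 varied together, with r = 0.96 and Spearman rho = 0.93 over the 8 values, r = 0.95 over deviations from the diet means, and r = 0.93 without control 3 and control 4, the arrays farthest from the median. Leaving out any single array kept r of the deviations between 0.95 and 0.98. The second Pdk4 probe set followed Angptl4 at r = 0.88.

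In the second pattern Bcl6 ran opposite to Cish and Socs2. Bcl6 and Cish had r = -0.89 and rho = -0.88, with r = -0.92 over deviations from the diet means, r = -0.84 without control 3 and HP 4, and a range of -0.97 to -0.89 when single arrays were left out of the deviations. Bcl6 and Socs2 had r = -0.78 and rho = -0.86, and r = -0.93 without the same 2 arrays. Cish and Socs2 had r = 0.82 and rho = 0.81, with r = 0.88 over deviations and r = 0.73 without control 4 and control 1. Mean Socs2 was 6.1314 in both diets, below the lowest adrenal cortex marker (6.20) and below the medians of all arrays. Both Cish probe sets were also below those medians, with means of 6.843 and 6.699 in HP and 6.847 and 6.700 in control kidneys. Without detection calls, the presence of Socs2 and Cish in the kidney was not tested. Both relations of Socs2 rested on the control arrays. Within the 4 HP arrays r was -0.03 for Bcl6 and Socs2 and -0.01 for Cish and Socs2, and within the 4 control arrays it was -0.98 and 0.98. Bcl6 and Cish had r = -0.76 within the HP arrays and -0.99 within the control arrays.

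In the third pattern Fkbp5 and Tsc22d3 varied together, with r = 0.89 and rho = 0.83, r = 0.91 over deviations from the diet means and r = 0.82 without control 4 and HP 4. The 2 Fkbp5 probe sets correlated at r = 0.97 over deviations. Relations across the patterns moved more when arrays were left out. Over the 8 deposited values Bcl6 and Pdk4 had r = -0.43 and rho = -0.48, and this r moved to -0.17 without control 3 and HP 4. Over the same values Pdk4 and Fkbp5 had r = -0.56, which moved to -0.05 without control 3 and control 4. Pdk4 and Cish had r = 0.26 over these values, which moved to 0.91 without the same arrays. Over deviations from the diet means r was -0.45 for Bcl6 and Pdk4, -0.42 for Pdk4 and Fkbp5 and 0.40 for Pdk4 and Cish. All arrays share tissue, platform and summarisation, and the 8 arrays are the only independent units behind each r.

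**Figure D3:**
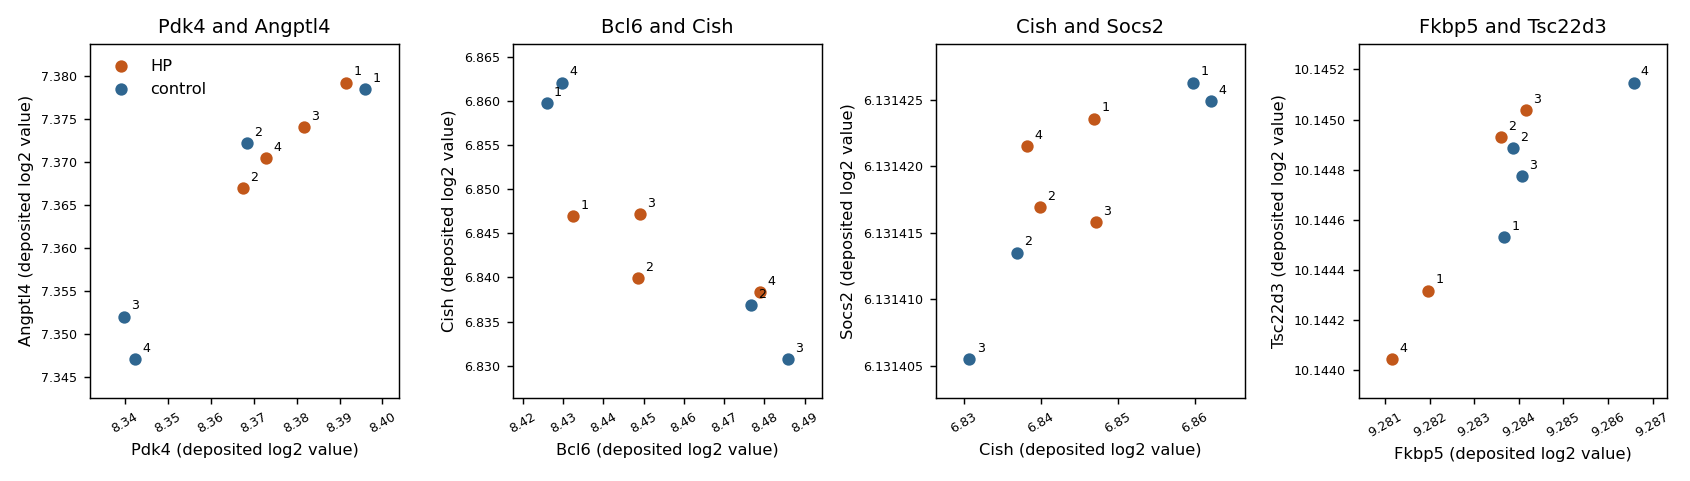
Deposited log2 values of 4 pairs of genes, 1 point per array, numbered within diet (HP orange, control blue). Pdk4 and Angptl4 (r = 0.96), Cish and Socs2 (r = 0.82) and Fkbp5 and Tsc22d3 (r = 0.89) slope upward, and Bcl6 and Cish (r = -0.89) slope downward.

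The genes whose deviations were most like those of Bcl6, or most opposite to them, were sought among 10478 probe sets of 8294 other genes. Irs2, the insulin receptor substrate that FOXO factors induce in fasting, was the most opposite at r = -0.98, and it was also among those most like Cish at r = 0.96. Irs2 had the 18th largest SD of all probe sets, with 8.1063, 8.1037, 8.1046 and 8.0998 on HP arrays 1 to 4, against 8.1138, 8.1019, 8.1007 and 8.1120 on control arrays 1 to 4. Its highest arrays, control 1 and control 4, were the lowest arrays of Bcl6. Eps8, Gbp7 and Numa1 followed at r between -0.98 and -0.97, but the other Eps8 probe sets had r of -0.21 and -0.33 and the other Numa1 probe set -0.37. The 8 most like Bcl6 were led by Gtsf1l at 0.98 and Cpxm2 at 0.97, and their SDs ranked between 1123 and 12151. Where they had further probe sets these did not follow, with r of 0.10 for Cpxm2, 0.12 for Slc6a3, between -0.52 and 0.20 for Ptprs and between -0.58 and -0.40 for Tnks2. An r over 0.9 with Bcl6 was found in 0.535% of all other probe sets and an r under -0.9 in 0.396%.

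Cpt1a, the enzyme that admits long-chain fatty acids to mitochondria, was second among the genes most like Pdk4, at r = 0.96, and its other probe set had r = 0.71. Cpt1a was highest on control 1 and lowest on control 3, like Pdk4, and its standardized difference between diets was 0.16. Cchcr1 came first at r = 0.99, and Arrdc4, an arrestin that is induced by sugar-sensing factors, reached 0.96. Clint1 had r = 0.96 and its other probe sets 0.90 and -0.36. An r over 0.9 with Pdk4 was found in 0.293% of all other probe sets.

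Fkbp5 and Cish were added as further references after their values had been seen. Both probe sets of Usp2, a deubiquitinase with a circadian rhythm, followed Fkbp5, at r = 0.94 and 0.93. Fmo2, a flavin monooxygenase, had r = 0.94, 0.76 and 0.37 in its 3 probe sets. Limma called the probe set at 0.37 lower in the HP diet (standardized difference -3.61, adjusted p = 0.037). Cxcl10, an interferon-induced chemokine, was the most opposite to Fkbp5 at r = -0.97.

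**Figure D4:**
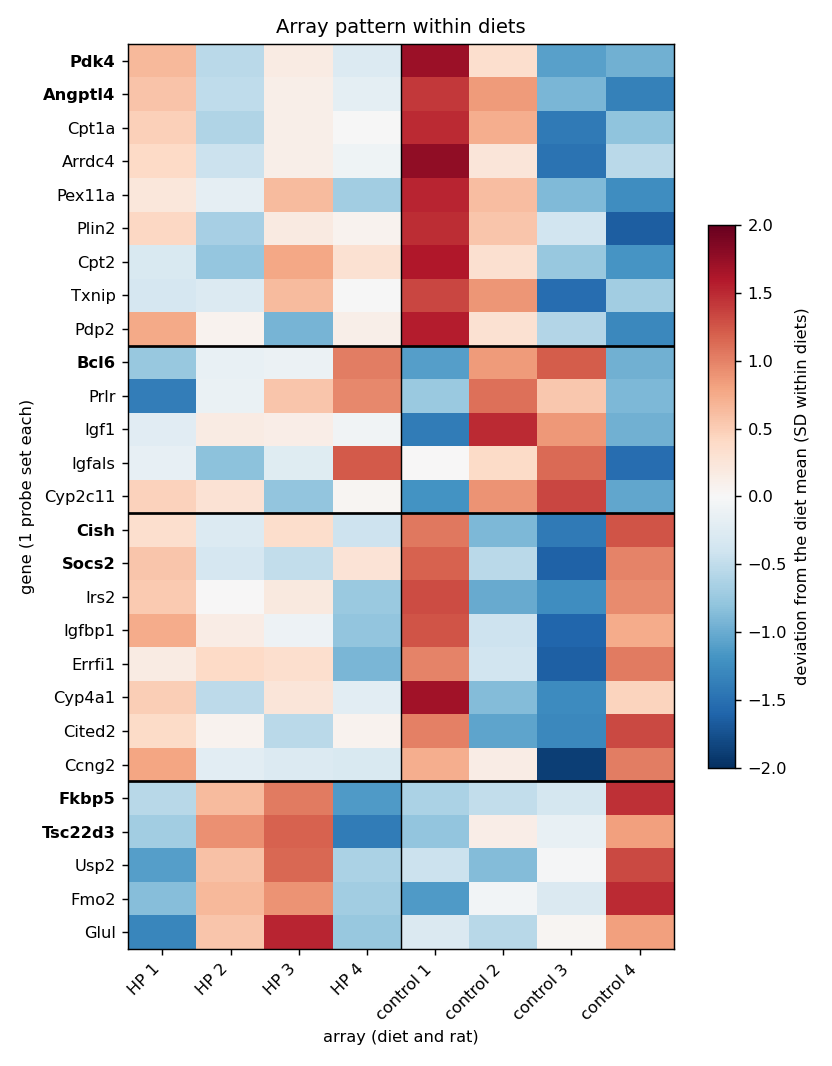
Rows are genes (bold for the 7 genes) and columns are arrays, HP left of control. Colour gives the deviation from the mean of the diet in SDs within diets, red above and blue below. Control 1 is red for Pdk4, Angptl4 and Cish and blue for Bcl6, and control 4 is red for Cish, Socs2, Fkbp5 and Tsc22d3. The other genes were picked for a high r with the gene that heads their block, so their colours follow by choice.

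Lists with 184 measured entries around the 7 genes were then described, each by limma calls between diets and by r with the members. A gene was read from its probe set of highest mean. Of 35 PPAR and fatty acid oxidation targets read in this way, limma called none between diets, with 4 at an unadjusted p under 0.05 and 3 by rank products. Yet 19 of the 35 had r over 0.5 with Pdk4 and 1 had r under -0.5, against 12.0% and 13.5% of all probe sets. Their median r with Pdk4 was 0.52, where that of all probe sets was -0.02. Pex11a, which drives peroxisome division, reached 0.92 (0.67 in its other probe set), the carnitine enzyme Cpt2 0.84 and Txnip, a redox protein raised by glucose, 0.83. The lipid droplet protein Plin2 had 0.89 in the probe set used and -0.18 in its other, which limma called higher in the HP diet (standardized difference 5.37, adjusted p = 0.012). Cyp4a1, an omega hydroxylase, correlated at 0.71 with Pdk4 and at -0.85 with Bcl6. Fgf21, the fasting hormone of liver, was the gene under -0.5, at -0.66. The same list ran against Fkbp5, with 14 of 35 under -0.5 and 4 over 0.5, beside 12.4% and 11.5% of all probe sets. Without control 1, the array highest in Pdk4, 12 genes had r over 0.5, beside 13% of all probe sets. Rescaling moved this count further, to 1 gene after quantile normalization (3.90% of all probe sets) and to 33 after median centring, where 92.1% of all probe sets had r over 0.5 with Pdk4.

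Of 18 FKBP proteins, HSP90 chaperones and co-chaperones and TSC22 family members, 9 had r over 0.5 with Pdk4 and 1 had r under -0.5, but 6 of these 9 had an SD below the median of all probe sets. With Fkbp5 the counts were 0 and 4, beside 11.5% and 12.4% of all probe sets. Limma called Fkbp1a and Tsc22d1 higher, at standardized differences of 4.11 and 3.83 (limma adjusted p = 0.028 and 0.032). Both calls were lost in 6 of 8 fits that left out 1 array, and the sign of both turned after quantile normalization and that of Fkbp1a after median centring.

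Of 29 measured glucocorticoid receptor targets other than the members, 7 (24.1%) had r over 0.5 with Fkbp5 and 5 (17.2%) had r under -0.5, beside 11.5% and 12.4% of all probe sets, and the median was 0.19. Glutamine synthetase Glul had 0.87, and 0.81 and 0.75 in its other probe sets. Klf9, a Krüppel-like factor, had 0.69, and 0.44 and -0.55 in its others, so its direction was not settled. The clock gene Per1 had 0.21 and the kinase Sgk1 -0.06. In the probe sets used, limma called 2 of the 29, both higher in the HP diet, while another Glul probe set was called lower (standardized difference -3.88, limma adjusted p = 0.031). Rgs2, a regulator of G protein signalling, had a standardized difference of 4.77 (limma adjusted p = 0.018) and Anxa1, the anti-inflammatory annexin, 4.97 (limma adjusted p = 0.016). The Rgs2 call was lost without control 3 (highest adjusted p of the 8 such fits 0.061), and that of Anxa1 without HP 1, control 1, control 2 or control 3 in turn (highest 0.056). Both were also lost after either rescaling and with the replicate number as a block.

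Of 20 genes of growth hormone receptor, STAT5 and SOCS signalling, 6 (30%) had r over 0.5 and 4 (20%) had r under -0.5 with Bcl6, beside 17.5% and 13.9% of all probe sets. With Cish 2 (10%) had r over 0.5 and 6 (30%) had r under -0.5, beside 13.6% and 17.7%. The prolactin receptor Prlr had r = 0.87 with Bcl6, the growth factor Igf1 0.81 and its serum partner Igfals 0.78, whereas the growth hormone receptor Ghr had -0.54, its kinase Jak2 -0.68 and the transcription factor Stat5b -0.49. The other probe sets of Prlr gave 0.30 and 0.52, and those of Igf1 gave 0.51 and 0.72. Socs1 gave -0.82 in one probe set and 0.53 in the other, so its direction was not settled. Limma called Serpina3n, a serine protease inhibitor of the acute phase, higher at 6.33 (limma adjusted p = 0.0078). This call held in all 8 fits that left out 1 array, and was lost after median centring (adjusted p = 0.98) and with the replicate number as a block (adjusted p = 0.062).

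Of 33 insulin and FOXO responsive genes, 6 (18.2%) had r under -0.5 and 3 (9.09%) had r over 0.5 with Bcl6, where 13.9% and 17.5% of all probe sets did. With Cish 9 (27.3%) had r over 0.5 and 4 (12.1%) had r under -0.5, beside 13.6% and 17.7%. Besides Irs2 those under -0.5 with Bcl6 were led by Igfbp1, the insulin-repressed binding protein of insulin-like growth factors, at r = -0.96 with Bcl6. Igfbp1 was also the single gene of the list that limma called, and it joined the Bcl6 pattern to a separation of the diets, as did Gbp7, an interferon-induced GTPase (standardized difference 4.79, limma adjusted p = 0.018). It read 9.0287, 9.0281, 9.0279 and 9.0273 on HP arrays 1 to 4, against 9.0258, 9.0242, 9.0231 and 9.0253 on control arrays 1 to 4, so that every HP array was above every control array. The standardized difference was 3.61 (limma adjusted p = 0.037), but each of the 8 fits without 1 array gave an adjusted p between 0.050 and 0.097, and the fit with the replicate number as a block gave 0.093. Within each diet its highest array was the array with the lowest Bcl6. Cited2, a co-regulator that FOXO factors induce, had -0.83 and -0.93 in its 2 probe sets, and cyclin Ccng2 -0.80. Errfi1, an inhibitor of EGF receptor signalling kept in the glucocorticoid list, had -0.92. Of the list genes named for their r, all but Cpt1a, Irs2, Igfbp1, Ccng2 and those that limma called were picked after the values had been seen.

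**Figure D5:**
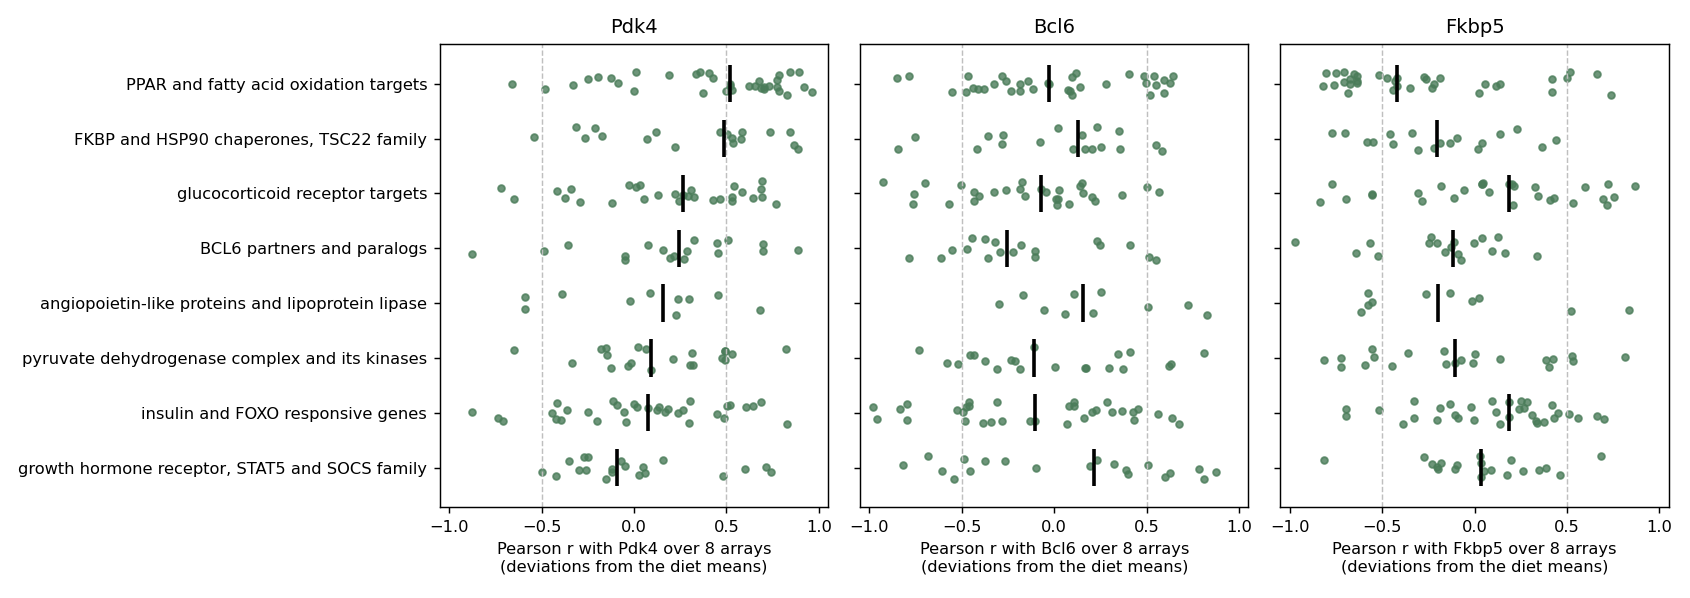
Each point is a list gene, placed on the x axis by its Pearson r over 8 arrays with Pdk4, Bcl6 or Fkbp5 (deviations from the diet means), with lists on the y axis, black bars at list medians and dashed lines at r of -0.5 and 0.5. The PPAR list has its median at 0.52 with Pdk4 and at -0.42 with Fkbp5.

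The remaining lists gave few calls. Among 21 genes of the pyruvate dehydrogenase complex, its kinases and pyruvate metabolism, limma called lactate dehydrogenase Ldha higher (standardized difference 3.87, adjusted p = 0.031) and pyruvate carboxylase Pc lower (-3.34, adjusted p = 0.046). Pdp2, the phosphatase that opposes Pdk4, had r = 0.82 with Pdk4 in one probe set and 0.13 in the other. Among 10 angiopoietin-like and lipoprotein lipase genes, Lrp1, a large endocytic receptor, was called higher (3.45, limma adjusted p = 0.042) and Apoc3, an inhibitor of lipase, lower (-3.24, limma adjusted p = 0.049). These 4 calls were each lost in 6 or more of the 8 fits without 1 array, and quantile normalization turned the sign of Ldha, Pc and Lrp1, as did median centring for Ldha and Lrp1. Among 18 BCL6 partners, paralogs and targets the chemokines Ccl2 (8.66, limma adjusted p = 0.0043) and Cxcl10 (9.29, limma adjusted p = 0.0039) were called higher. Both held in all 8 such fits, and the call of Cxcl10 was lost after median centring (adjusted p = 0.99) and quantile normalization (adjusted p = 0.065). In all, 10 of the 184 entries were called higher and 2 lower, where limma called 2.95% of all probe sets higher and 1.13% lower.

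Markers of other cells were set beside these patterns. Of 10 macrophage markers limma called 8 higher in the HP diet and 0 lower, with a median standardized difference of 4.19, and the per-array median of the list, in SDs within diets, was 0.93 to 3.94 on HP arrays and -2.21 to -1.71 on control arrays. The summed deposited values of the list were 78.551 to 78.561 on HP arrays and 78.539 to 78.541 on control arrays. Between 2 and 8 macrophage markers were called when 1 array was left out, 4 after median centring and 1 with the replicate number as a block. Of 8 lymphocyte markers 2 were called, Cd3g and Ptprc, both higher. At an unadjusted p under 0.05 in limma 4 were higher, and 4 were higher by rank products. The call of Cd3g held in 2 of the 8 fits that left out 1 array and that of Ptprc in all 8. Both were lost after median centring and with the replicate number as a block. With Bcl6, 0 of the macrophage markers had r over 0.5 and 2 had r under -0.5, and with Pdk4 the counts were 1 and 1. Of 3 erythrocyte markers none was called by limma, 2 were lower at an unadjusted p under 0.05 and 2 were called lower by rank products, among them the globin Hbb, which had the 25th largest SD and r of -0.18 with Bcl6 and 0.09 with Pdk4. Of 10 white adipocyte markers none was called by limma, 3 had an unadjusted p under 0.05 and 2 were called by rank products, 4 had r over 0.5 with Bcl6 and 0 with Pdk4, beside 17.5% and 12.0% of all probe sets. Their mean deposited values lay between 6.34 (Lep) and 8.83 (Pnpla2) in both diets. Of 5 adrenal cortex markers none was called by limma, by rank products or at an unadjusted p under 0.05, their means lay between 6.20 and 6.66 in both diets, and 2 had r over 0.5 with Pdk4. The part of these cells in the patterns of the members was not tested.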

How the data were processed

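Left kidney RNA of 8 rats was prepared with TRIzol and RNeasy columns, labelled with a 3′ in vitro transcription kit and hybridised to 1 array each. The deposited values were log values that the authors made from the scanner files with the distribution free weighted method in R, taken here as log2 because the base was not given in the sources used here. The method weights the probes of a probe set and scales by its spread, so levels of different probe sets compare only roughly. Such levels served to pick the probe set of highest mean per gene, to filter dim probe sets and to describe markers, Socs2 and Cish. The number of arrays, not depth, limits the precision. The labels call the 4 arrays of a diet biological replicates.

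Probe sets were named from the platform annotation. Of 31099 probe sets, 57 hybridisation controls were left out. Diets were compared over the remaining 31042 with limma 3.58.1 (R 4.3.3, lmFit and eBayes, prior degrees of freedom 0.772, Benjamini-Hochberg adjustment) and, for single values, with an exact two-sided permutation test (scipy 1.17.1). Rank products were computed over the 16 pairs of arrays with 1000 permutations, after the authors' choice of method, on all 31099 probe sets. The scripts were tested on simulated data. Correlations were taken over 8 deviations from the diet means unless stated otherwise. For pairs of members, an r given together with rho, or without the arrays farthest from the median, was taken over the deposited values.

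The members and the gene lists were chosen with earlier results of these data known. Of 206 list entries 184 were matched to a probe set, and each gene was read from its probe set of highest mean. Named genes were the members, up to 4 genes of each list with the smallest limma p, and the 8 genes most like and 4 most opposite Bcl6 and Pdk4 by correlation, among probe sets of 1 symbol with an SD above the median. Other names are marked where they appear.

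The limma fit was recomputed without moderation, with a moderation that followed a trend and was robust to outliers, and with weighted arrays. Further fits had a block for the replicate number, left out the dimmest 25% of probe sets or left out each array. Other fits followed quantile normalization or median centring. Rank products, spreads and correlations between members were repeated only after these rescalings and without each array. Among the counts of list correlations, only that of the PPAR list with Pdk4 was repeated, under the same settings. That repeat and the references Fkbp5 and Cish were added for the list correlations after seeing the data.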

Additional observations from a re-analysis of the deposited data

Results flagged for a closer look

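Fkbp5 probe set 1388901_at was picked out because control 4 lay far from the other control arrays. Its deposited value was 9.2866, against 9.2837 to 9.2841 on the other 3 control arrays, and the gap made up 0.862 of the range of the group, above the 95% critical value of Dixon's test for 4 arrays. Chance alone marks about 1 in 20 groups in this way. No other member probe set was picked out in either diet.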

How the results depend on the processing

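The values came from 8 arrays with no detection calls in the files used, and array medians differed by more than the SD of most probe sets, so calls across all probe sets moved with rescaling. The 1265 limma calls became 693 without moderation, 369 with the replicate number as a block, 8028 after quantile normalization and 97 after median centring, and lay between 420 (without control 3) and 891 (without HP 3) when 1 array was left out. The 12 calls within the pathway lists became 5, 3, 33 and 4 in the same order of settings, and 3 to 9 without 1 array. Same-numbered arrays correlated at 0.12, 0.089, 0.063 and 0.0015 over deviations from the diet means, and arrays of unlike number at -0.17 to 0.084. These values do not settle whether the numbers mark pairs. The labels name no pairs, so the main fit took none and the block for the number was a further setting. After quantile normalization r was 0.61 for Cish and Socs2, and Tsc22d3 had the same value on all arrays and gave no r with Fkbp5. After median centring r was 0.55 for Cish and Socs2 and -0.47 for Bcl6 and Socs2. Fkbp5 and Tsc22d3 had a Spearman rho of 0.83. The PPAR list had 1 gene with r over 0.5 with Pdk4 after quantile normalization, 33 after median centring, and 12 to 21 without 1 array. None of these settings turned the sign of r for Pdk4 with Angptl4, Bcl6 with Cish or Bcl6 with Socs2. Of the 7 probe sets tested between diets, the adjusted p lay between 0.16 and 1.0 under 14 settings, and median centring, where limma gave every probe set 1 common variance, put Angptl4 at 8.3e-66 and Cish probe set 1378586_at at 3.2e-11. Of 104 such values 3 turned sign, namely Cish probe set 1378586_at without control 4 and Socs2 without control 3 and after median centring.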

Other observations

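Cyp2c11, a male-specific cytochrome P450 that growth hormone pulses maintain in liver, had the 8th largest SD within diets of all probe sets and was in none of the lists. It read 8.5742, 8.5720, 8.5580 and 8.5687 on HP arrays 1 to 4, against 8.5598, 8.5871, 8.5927 and 8.5617 on control arrays 1 to 4. Control 2 and control 3 were high and control 1 and control 4 low, as for Bcl6, and r over deviations from the diet means was 0.74 with Bcl6 and -0.91 with Cish. Its standardized difference between diets was -0.54 (limma adjusted p = 0.74). Cyp2c11 was chosen after its values had been seen, and it has close relatives in the rat genome.

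The circadian genes Dbp and Hlf, also outside the lists and chosen after their values had been seen, had the 23rd and 30th largest SD. Their r was 0.41 and 0.46 with Fkbp5 and -0.64 and -0.66 with Pdk4. Scd, a fatty acid desaturase at rank 13, had r of 0.30 with Pdk4 and 0.39 with Bcl6.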
